A study of Danio rerio with 2 samples.

Results

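Solute carriers (SLC) are the large class of membrane proteins that move small molecules across the plasma membrane and the membranes of organelles, by facilitated diffusion or by coupling to the gradient of another solute. They are numbered by family, and a family number usually marks a kind of substrate. In the blastula they serve cleaving cells that live on stored yolk, the outer enveloping layer, and the yolk syncytial layer, which passes nutrients from the yolk to the cells above it. The genes described here are those whose deposited symbol begins with slc followed by a family number, or with slco for the organic anion transporters, and whose mean value over the 2 libraries was at least 1. That gave 74 genes from 31 families, of 84 solute carrier genes listed and 3524 genes in all with a mean of at least 1. The authors listed 4591 genes, and how these were chosen is not known here. Genes outside that list could not be examined: of 20 enveloping layer markers sought, for example, 15 were listed. Counts of families, pairs and "all genes" below refer to listed genes only. Just inside the minimum lay slc27a2b with a mean of 1.01, and just outside it slc51a with 0.96.

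The data are RNA-seq values of zebrafish embryos (Tuebingen strain, whole embryos) collected 4.7 h after fertilization. One library came from embryos injected with a standard (control) morpholino and the other from embryos injected with a phf14 morpholino, 5 ng each at the 1-cell stage. Morpholinos are antisense oligomers that block translation or splicing of a target RNA, so the injected embryos carry no mutation, and knockdown may be partial. PHF14 is a histone-binding protein studied in this series for its part in the activation of the zygotic genome. There is 1 library per condition, so the differences below have neither a replicate error nor a p-value, and verbs such as "was higher" describe these 2 libraries only. The phf14 transcript itself was not analysed here, so the knockdown was not checked. Values are the authors' expression signal. Its scale is not stated, nor whether it is per transcript length, so levels are not ranked between genes. The log2 ratio is the log2 of the phf14 morpholino value plus 1, minus the same for the standard morpholino library. In whole embryos, fewer cells of a type and less RNA per cell cannot be told apart.

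The median of the solute carriers lay close to that of all genes, but beside all genes their values leaned to the lower side. Of the 74, 40 had a higher value in the phf14 morpholino library (54.1%) against 62.3% of all 3524 genes, and 34 a lower one against 37.2%. The median log2 ratio of the solute carriers was 0.04 and that of all genes 0.11, so relative to the median gene it was -0.07. After that centring 31 solute carriers were higher and 43 lower, against 50% of all genes on each side. Relative to genes of like level 26 of the 74 were higher, beside 1760 of all 3524 genes. Past 1.5-fold, a log2 ratio of 0.58, were 3 higher genes against a background of 4.94% and 3 lower genes against 2.84%, which together make 8.11% of the members beside 7.78% of all genes. That share is near the background. All such lines are drawn on the value + 1 scale, on which no member passed 2-fold, beside 0.823% of all genes. By the plain ratio of the deposited values, 3 members passed 2-fold (4.05%), beside 3.04% of all genes. They were slc26a11, slc25a51b and slc46a3, all with low values. With centring, 1 of the 74 members (slc25a51b) was past 1.5-fold higher, beside 2.36% of all genes. On the lower side 9 of the 74 were past it, beside 4.97% of all genes.

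The ends of the distribution were not equally filled. Among the lowest 10% of all log2 ratios, at or below -0.34, stood 15 members (20.3%). Among the highest 10%, at or above 0.48, stood 7 members (9.46%). By the classes described below, the 15 low members included 4 of 19 amino acid genes and 4 of 9 organic ion genes. Others were 3 of 9 inorganic ion genes, 2 of 8 vitamin, nucleoside and lipid genes and 1 of 5 metal genes. The amino acid share was thus near that of all solute carriers. The 20 genes of families SLC25 and SLC35 held 1 low member. Members were grouped into 8 substrate classes by family number. Medians of the log2 ratio by class ran from -0.20 for organic anions and cations and -0.15 for amino acids upward. At the other end were 0.14 for mitochondrial carriers and 0.40 for the nucleotide sugar class. Over the 7 genes of that last class with a named nucleotide sugar or sulfate donor the median was 0.23. Relative to genes of like level it was 0.05. The mitochondrial median was below 0, at -0.02, relative to genes of like level. The amino acid, organic ion and nucleotide sugar medians kept their sign under every scaling, but this could hardly be otherwise. Outside the highest of the 10 bands of level the scalings only lowered log2 ratios, by at most 0.18. In that highest band, with a median of -0.15, the amino acid genes stayed below 0. Medians below 0, or as far above it as 0.40, could therefore not turn.

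**Figure D1:**
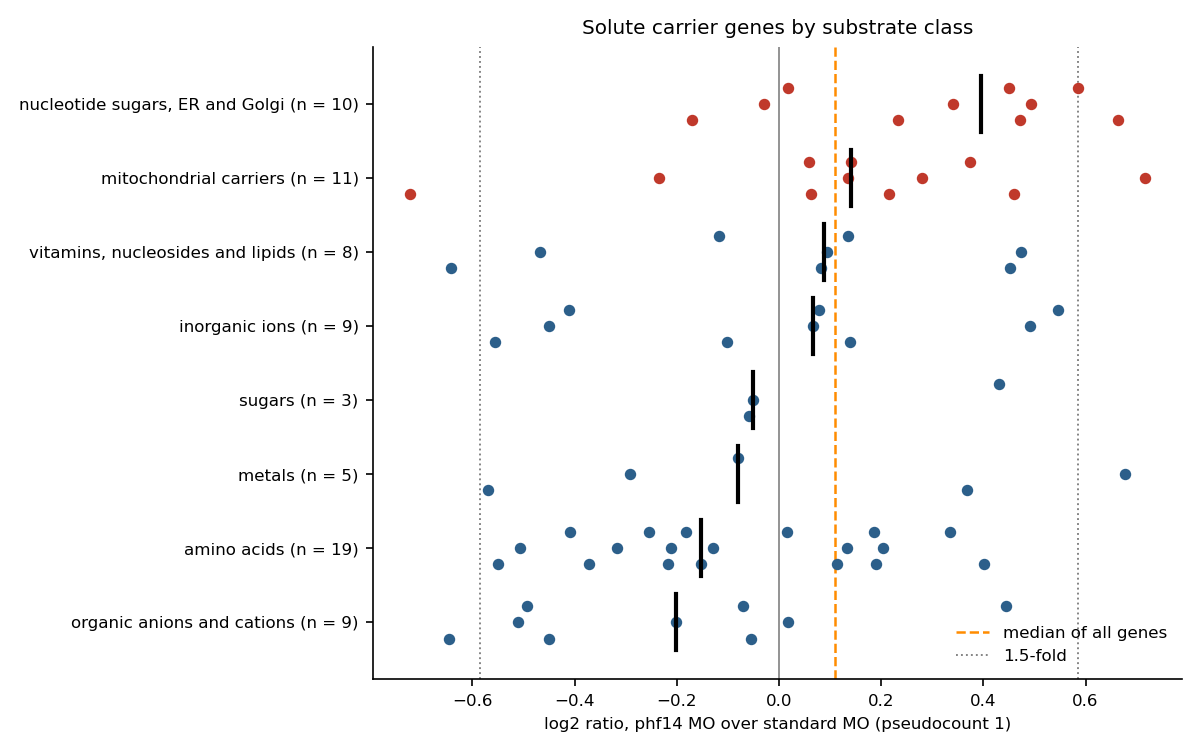
Each point is 1 of the 74 solute carrier genes, placed by its log2 ratio of phf14 over standard morpholino (x axis) in its substrate class (y axis, n in brackets); vertical spread within a class only separates points. Black bars are class medians, the dashed line is the median of all genes at 0.11 and the dotted lines mark 1.5-fold. The nucleotide sugar class has its median at 0.40, or 0.23 over its 7 genes with a named nucleotide sugar or sulfate donor. The organic ion and amino acid classes have theirs at -0.20 and -0.15.

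Amino acid and peptide transporters made up the most numerous class, with 19 genes, of which 11 had lower and 8 higher values in the phf14 morpholino library. None passed 1.5-fold on the value + 1 scale, although slc7a8a and slc1a3a did so on the lower side after centring. By the plain ratio, slc1a3a (0.626) and slc1a4 (0.613) were past it. Relative to the median gene 12 were lower and 7 higher, with a class median of -0.26. The heteromeric transporters are built from a heavy chain of family SLC3, which carries the complex to the cell surface, and a light chain of family SLC7, which does the transport, here of large neutral amino acids. The heavy chain gene slc3a2b (ENSDARG00000037012) was at 144.84 with the standard morpholino and 108.89 with the phf14 morpholino, a log2 ratio of -0.41. Its light chain gene slc7a8a (ENSDARG00000075831) was at 143.40 and 97.62, a log2 ratio of -0.55. slc7a5, a light chain gene that joins the same heavy chain, was at 7.25 and 6.27 (log2 ratio -0.18). All 3 subunit genes were lower in the phf14 morpholino library, and each was also below the median of genes of like level. Relative to that median they were at -0.26 (slc3a2b), -0.40 (slc7a8a) and -0.33 (slc7a5). The SD within the band of level was 0.31 for slc3a2b and slc7a8a and 0.35 for slc7a5. The band of slc3a2b and slc7a8a is wide, with means from 27.91 to 5899.

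The values of slc3a2b and slc7a8a weigh heavily in the summed signal of the class. Summed over the 74 genes, the deposited values came to 804 (standard morpholino) and 711 (phf14 morpholino). These 2 genes contributed 288 and 207, which is 35.9% and 29.1% of those sums. Without them the sums were 516 and 504. The total of all listed genes was also lower, at 75675 and 71136, and of that total the solute carriers without this pair made up 0.682% and 0.709%. Whether the pair is so prominent because of abundance or transcript length cannot be told from the files.

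Most proteins of families SLC1 and SLC38 take up amino acids with sodium. slc1a3a, a glutamate transporter gene, was at 3.82 and 2.39 (log2 ratio -0.51). The neutral amino acid transporter gene slc1a4 was at 1.42 and 0.87 (-0.37), which are low values. Both SLC1 genes above the minimum were therefore among the lowest 10% of all genes. In family SLC38, which takes up glutamine and related amino acids, slc38a5b was at 8.44 and 6.58 (-0.32). slc38a4 was at 6.37 and 5.37 (-0.21). By contrast slc38a2, a transporter gene induced by amino acid shortage in mammals, was nearly level at 9.03 and 9.14 (0.02, and below 0 after centring). This family was thus split between lower, level and higher genes. The highest ratio was that of slc38a6, at 4.04 and 5.66 (0.40). slc38a9 was also higher, at 4.69 and 6.18 (0.34). SLC38A9 sits in the lysosomal membrane and reports arginine to the growth kinase complex mTORC1 in mammals.

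In family SLC43, slc43a2b, a gene for facilitated transport of large neutral amino acids, was at 35.38 and 30.28 (log2 ratio -0.22). slc43a3b, whose human counterpart carries purine nucleobases rather than amino acids, was at 11.05 and 9.10 (-0.25). Both SLC43 genes were lower. Family SLC6 differed little: slc6a7, a proline transporter gene, was at 11.63 and 10.36 (-0.15). The taurine transporter gene slc6a6b was at 2.04 and 2.29 (0.11). slc6a22.1 was at 6.08 and 6.76 (0.13). Peptide transporter genes were slightly higher, with slc15a2 at 2.05 and 2.48 (0.19) and the lysosomal slc15a4 at 4.93 and 5.83 (0.20). slc7a14a, an SLC7 relative found in lysosomes in mammals, was at 2.55 and 3.04 (0.19), and the heavy chain gene slc3a1 at 1.11 and 0.93 (-0.13). Of the higher members, slc38a2, slc6a6b and slc6a22.1 were below 0 in at least 1 rescaling, and the others kept their sign.

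**Figure D2:**
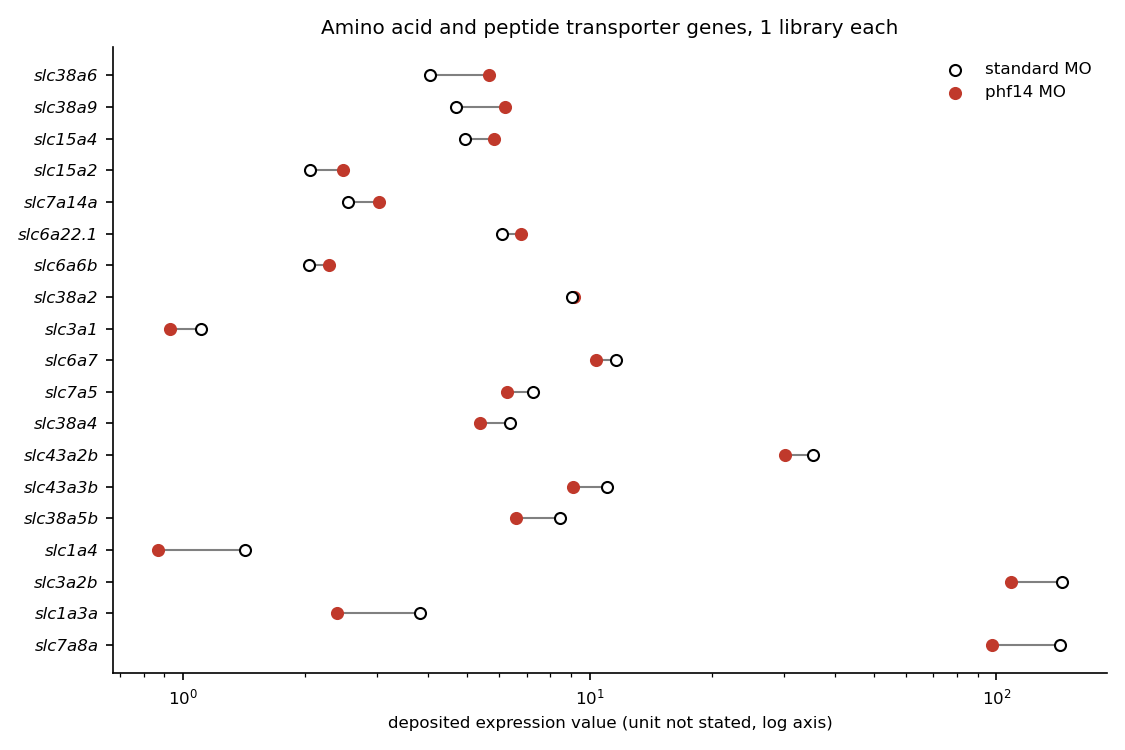
For each of the 19 amino acid and peptide transporter genes (y axis, sorted by log2 ratio) the open circle is the standard morpholino library and the filled circle the phf14 morpholino library, on a log axis of the deposited value (x axis). slc7a8a and slc3a2b lie furthest to the right, at 143.40 and 97.62 and at 144.84 and 108.89, with the filled circle to the left in both.

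Transporters of organic anions and cations included 7 lower and 2 higher genes out of 9. Their median log2 ratio was -0.20, or -0.31 relative to the median gene, and after centring 1 of the 9 was higher. slc47a4 (ENSDARG00000079340), of the multidrug and toxin extrusion family, had the lowest ratio of the class, at 4.68 and 2.63 (log2 ratio -0.65). slc22a5, named for the carnitine importer that supplies fatty acid oxidation, was at 19.49 and 13.39 (-0.51). The organic anion transporter gene slco1d1 was at 8.54 and 5.78 (-0.49). slc13a4, a sodium and sulfate cotransporter gene in mammals that was placed here by its family number, was at 32.37 and 23.42 (-0.45). These 4 stood among the lowest 10% of all genes. Lesser differences were seen for slc17a9a, a vesicular nucleotide transporter gene, at 5.00 and 4.22 (-0.20), and for the orphan slc10a3 at 3.79 and 3.56 (-0.07). In the monocarboxylate family SLC16, slc16a10, which carries aromatic amino acids in mammals, was at 2.24 and 2.12 (-0.05). slc16a9b was at 9.28 and 9.41 (0.02, below 0 after centring). The remaining gene, slco5a1a, was higher at 1.38 and 2.24 (0.45).

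Inorganic ion transporters were split, with 5 of 9 higher and a median of 0.07, which became -0.04 after centring. With centring 3 of the 9 were higher, and 2 were above the median of genes of like level. The sulfate transporter gene slc26a1 (ENSDARG00000029832) was at 25.55 and 17.07 (log2 ratio -0.56). slc26a4, which encodes the anion exchanger pendrin, was at 1.5 and 0.83 (-0.45). slc26a11, the third measured SLC26 gene, went the other way at 0.78 and 1.60 (0.55), although at low values. The SLC26 genes therefore lay at opposite ends of the class. Among bicarbonate transporters, slc4a4a was lower at 9.02 and 6.54 (-0.41). slc4a10a was at 2.07 and 1.86 (-0.10). slc4a7 was at 7.75 and 8.24 (0.08, below 0 after centring). The other 3 ion transporter genes were level or higher. The phosphate importer gene slc34a2b was nearly level at 16.53 and 17.37 (0.07, below 0 after centring). slc9a8, a sodium and proton exchanger gene, was at 1.77 and 2.05 (0.14, below 0 relative to genes of like level). slc12a9, a member of the cation and chloride cotransporter family, was higher at 4.20 and 6.31 (0.49).

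Metal transporters comprised 5 genes, 2 of them higher. The zinc importer gene slc39a5 was at 8.64 and 5.50 (log2 ratio -0.57). Zinc exporters of family SLC30 move the metal out of the cytosol and were split. slc30a8, which loads secretory granules in mammals, was at 8.59 and 6.84 (-0.29). slc30a5, a Golgi transporter gene, was at 5.28 and 4.94 (-0.08). slc30a9, linked to mitochondrial zinc in mammals, was at 3.79 and 5.18 (0.37). The metals thus included genes at both ends. slc31a2 (ENSDARG00000076092), a copper transporter gene, was past 1.5-fold at 2.51 and 4.61 (0.68), but under that line after centring (0.57). Metallothionein mt2, which binds zinc and copper in the cytosol, was at 1.51 and 3.21 (0.75). The direction of the metal class median, -0.08, turned when the mean of 0.02 was taken instead.

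The nucleotide sugar class holds the SLC35 family, whose proteins bring activated sugars and sulfate donors from the cytosol into the endoplasmic reticulum and Golgi for glycosylation and sulfation, and 1 gene of family SLC37. Of its 10 genes 8 were higher in the phf14 morpholino library, 7 after centring. The median log2 ratio was 0.40, or 0.29 relative to the median gene and 0.23 relative to genes of like level. slc35a3a (ENSDARG00000013222), for the transporter of UDP-N-acetylglucosamine, was at 12.05 and 18.57 (log2 ratio 0.58, marginally under the 1.5-fold line on the value + 1 scale, with a plain ratio of 1.54). The transporters of the sulfate donor PAPS were higher too, with slc35b3 at 3.06 and 4.63 (0.47). slc35b2 was at 5.07 and 6.13 (0.23). slc35c2, of the GDP-fucose subfamily, was at 11.45 and 16 (0.45). The other 3 genes with a nucleotide sugar substrate had log2 ratios of at most 0.02. The GDP-fucose transporter gene slc35c1 was level at 18.52 and 18.14 (-0.03). slc35b4, for UDP-xylose and UDP-N-acetylglucosamine, was lower at 7.37 and 6.44 (-0.17). slc35a3b was at 4.42 and 4.49 (0.02, below 0 after centring).

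Several of the higher genes do not carry nucleotide sugars as far as is known. slc35f2 (ENSDARG00000069745), whose human counterpart imports the tRNA precursor queuosine at the cell surface, was past 1.5-fold at 5.82 and 9.80 (log2 ratio 0.66). After centring it was under that line (0.55). slc35e1, without a settled substrate, was at 9.54 and 13.83 (0.49). slc37a3, a lysosomal protein gene, was at 5.48 and 7.21 (0.34). Without these 3, 5 of 7 genes were higher with a median of 0.23, which was 0.05 relative to genes of like level.

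Mitochondrial carriers of family SLC25 exchange metabolites, nucleotides and cofactors across the inner mitochondrial membrane. Of 11 measured genes 9 were higher, beside 62.3% of all genes, with a median of 0.14. After centring 7 were higher and the median was 0.03. Relative to genes of like level 5 of the 11 were higher and the median was -0.02. At a pseudocount of 1 this family held both the lowest and the highest log2 ratio of the solute carriers. That order depends on the pseudocount: with 0.1 slc46a3 was the lowest at -1.0, and with 5 slc7a8a (-0.53) and slc35a3a (0.47) were at the ends. slc25a1b (ENSDARG00000076381), for the carrier that exports citrate for lipid synthesis, was at 7.0 and 3.85 (log2 ratio -0.72). slc25a51b (ENSDARG00000040463), for a carrier that brings NAD+ into the mitochondrion in mammals, was at 1.61 and 3.29 (0.72). Its duplicate slc25a51a was at 0.92 and 1.33 (0.28). The ATP-magnesium and phosphate carrier genes slc25a25a and slc25a25b were both higher, at 12.26 and 14.39 (0.21) and at 1.45 and 2.37 (0.46). Among the mitoferrins, which import iron for heme and iron-sulfur clusters, slc25a28 was at 4.93 and 6.68 (0.37) and slc25a37 at 2.16 and 2.30 (0.06, below 0 after centring).

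Other mitochondrial carriers differed less. slc25a42, a coenzyme A carrier gene, was at 4.28 and 4.8 (log2 ratio 0.14). It was below 0 relative to genes of like level. slc25a44b, for a carrier of branched-chain amino acids in mammals, was at 9.87 and 10.33 (0.06, below 0 after centring). The glutamate carrier gene slc25a18 was lower, at 3.13 and 2.51 (-0.23). In the mitochondrial import list the only gene listed by the authors, timm10b, was at 9.91 and 11.58 (0.21).

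**Figure D3:**
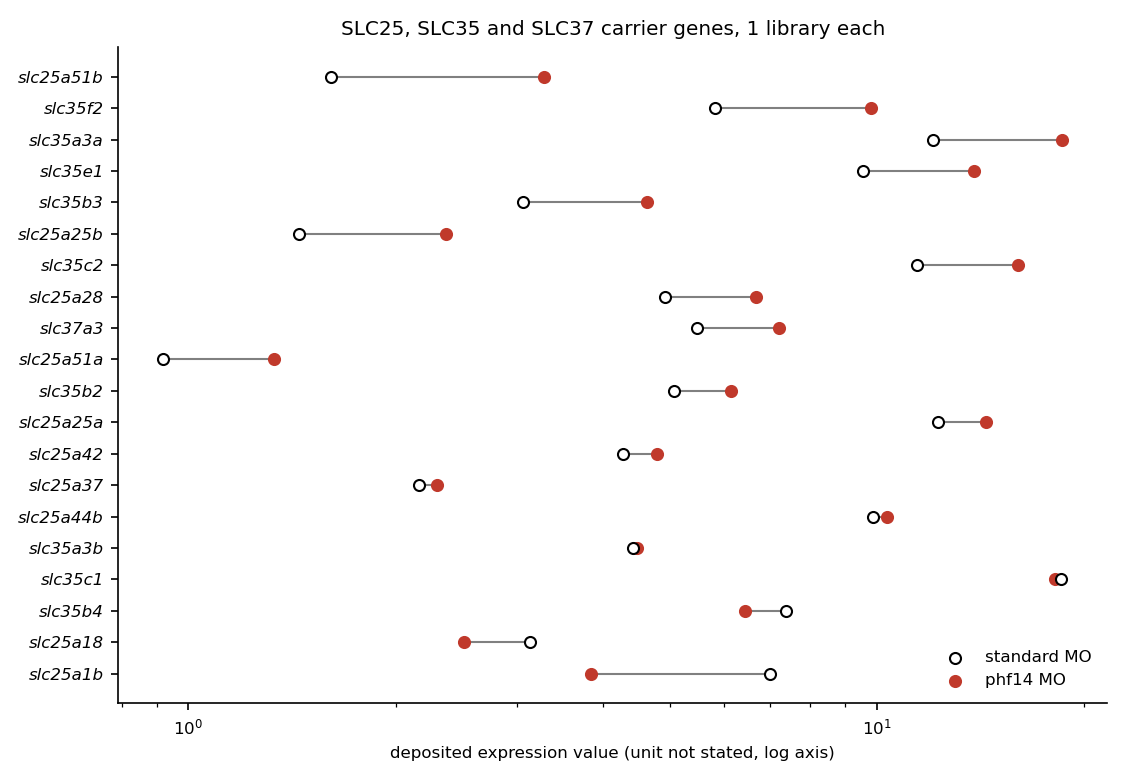
Values of 20 of the 21 genes of families SLC25, SLC35 and SLC37 (y axis, sorted by log2 ratio) in the standard (open circle) and phf14 (filled circle) morpholino libraries, on a log axis of the deposited value (x axis). The filled circle lies to the right in 16 genes and to the left in 4, with slc25a1b at 7.0 and 3.85 the widest gap to the left.

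Taken as 2 blocks, a split chosen after the values had been seen, the 21 genes of SLC25, SLC35 and SLC37 had a median log2 ratio of 0.23 and the other 53 solute carriers one of -0.07. Relative to the median gene these were 0.12 and -0.18, and relative to genes of like level 0.11 and -0.22. Higher values were found in 17 of 21 and in 23 of 53, beside 62.3% of all genes. After centring 14 of 21 and 17 of 53 were higher, beside 50% of all genes. Above the median of genes of like level were 12 of 21 and 14 of 53. Both blocks spanned both signs and overlapped over most of their range, from -0.72 to 0.72 and from -0.65 to 0.68.

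Teleosts keep duplicate copies of many genes, and among the listed genes 3 pairs had both copies above the minimum. Both copies were higher in each pair. slc35a3a (log2 ratio 0.58) and slc35a3b (0.02, below 0 after centring) were the furthest apart, by 0.57. The copies of slc25a51 were 0.44 apart and those of slc25a25 were 0.25 apart. How reads shared by duplicates were assigned is not stated, so the split within a pair is uncertain.

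Vitamin, nucleoside and lipid transporters had 5 of 8 genes higher, a median of 0.09 and a centred median of -0.02. After centring 3 of the 8 were higher, and 2 were above the median of genes of like level. slc46a3 (ENSDARG00000077313), a lysosomal relative of the folate transporter, was past 1.5-fold lower at 2.20 and 1.05 (log2 ratio -0.64). slc46a1, for the proton-coupled folate transporter itself, was higher at 4.03 and 5.88 (0.45). The lysosomal nucleoside transporter gene slc29a3 was at 3.94 and 2.57 (-0.47), whereas its surface relative slc29a2 was at 1.87 and 2.04 (0.08, below 0 after centring). The folate family was thus split by sign, whereas both nucleoside transporter genes were below 0 after centring. The choline transporter gene slc44a1b was at 1.67 and 2.71 (0.47). slc44a2 was at 2.25 and 2.57 (0.14, below 0 relative to genes of like level). slc23a2, which takes up ascorbate, was at 10.78 and 9.86 (-0.12). The fatty acid transporter gene slc27a2b was at 0.94 and 1.07 (0.09, below 0 after centring).

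Sugar transporters were 3 genes of the facilitated glucose transporter family. slc2a12 was almost level at 44.19 and 42.61 (log2 ratio -0.05, but 0.10 relative to genes of like level). slc2a10 was at 4.09 and 3.89 (-0.06). slc2a15b, a fish gene needed for pigment cells in medaka, was at 0.95 and 1.63 (0.43), with low values in both libraries.

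The median log2 ratio differed with the level of a gene. In all genes the median was lower only at a mean of at least 10. In solute carriers it was lower in each higher group. Among the 17 solute carriers with a mean of at least 10 the median log2 ratio was -0.12, against -0.01 for 1004 such genes of any kind. With a mean of 5 to 10 it was 0.02 over 21 solute carriers and 0.16 over 679 genes. With a mean under 5 it was 0.12 over 36 solute carriers and 0.14 over 1841 genes. Relative to genes of like level, the solute carrier medians were -0.10, -0.13 and -0.03, from the highest group to the lowest. The stepwise order was thus not kept. Whether the solute carriers depend on level otherwise than all genes do was not tested. Genes were also cut by level into 10 bands of equal number, and the SD of log2 ratios within a band was between 0.31 and 0.37. Of the 74 members 43 (58.1%) lay within 1 such SD of 0, beside 68% of all genes. The SD across the solute carriers was 0.37 and across all genes 0.35.

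**Figure D4:**
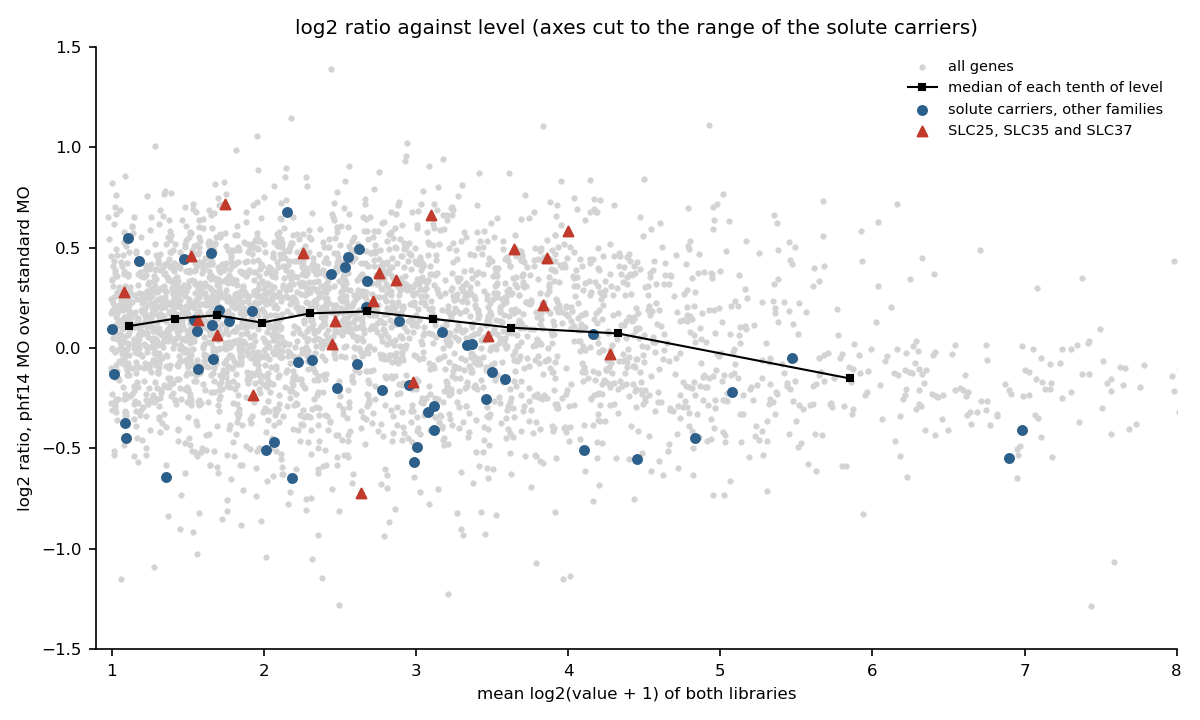
The log2 ratio of phf14 over standard morpholino (y axis) is plotted against the mean log2(value + 1) of both libraries (x axis) for all genes (grey), the SLC25, SLC35 and SLC37 genes (triangles) and the other solute carriers (circles); genes outside the drawn range are not shown. Black squares are medians of 10 bands of level, and the last of them lies at -0.15. The 2 circles furthest to the right are slc7a8a and slc3a2b, at -0.55 and -0.41.

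Other transport genes gave small lists, to be read beside 62.3% of all genes higher and 37.2% lower. Of 6 ABC transporter genes, which pump substrates with ATP, 4 were lower, with a median log2 ratio of -0.27. That median was -0.38 after centring and -0.41 relative to genes of like level. The cholesterol exporter gene abca1b was at 12.64 and 8.0 (-0.60) and abcb11a, a bile salt pump gene, at 1.30 and 1.73 (0.25). Of 5 cation pump genes 3 were lower, all of them beta subunits of the sodium pump, such as atp1b1a at 60.48 and 53.67 (-0.17). The calcium pump gene atp2a2a was at 5.14 and 7.37 (0.45). Of 4 genes of the vacuolar proton pump 3 were higher, and atp6v1h was at 1.56 and 2.45 (0.43). Their median was 0.24, or 0.13 after centring and 0.10 relative to genes of like level. The water channel gene aqp3a was level at 7.32 and 7.22 (-0.02).

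Among 7 escort proteins and metabolic partners above the minimum 4 were higher and 3 lower, beside 62.3% and 37.2% of all genes. Their median was 0.32, or 0.21 after centring and 0.215 relative to genes of like level. arl6ip5a, related to a regulator of glutamate transporters in mammals, was at 20.38 and 13 (log2 ratio -0.61). The glycolytic hexokinase gene hk2 was at 2.66 and 3.93 (0.43) and hk1 at 3.36 and 3.10 (-0.09).

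Marker genes of cell layers, and of maternal or zygotic origin of the RNA, also differed between the libraries. Of 15 listed enveloping layer genes 14 had a mean of at least 1, and all 14 were lower in the phf14 morpholino library, with summed values of 2488 and 2002. Of 11 listed yolk syncytial layer genes 9 had a mean of at least 1. Leaving out slc26a1, which belongs to both sets, the other 8 were all lower, with sums of 1917 and 1504 and a median log2 ratio of -0.45. None of the listed markers of either layer was at 0. The log2 ratio of slc26a1 lay within the range of the yolk syncytial genes, which ran from -0.59 for hnf4a to -0.27 for mxtx1. That range does not set it apart, as it also held slc7a8a (-0.55), slc22a5 (-0.51) and the enveloping layer gene anxa1a (-0.54). Of 8 oocyte transcripts 7 were higher, with sums of 169 and 215. Of 13 genes of zygotic activation 11 were lower. Of all genes, 37.2% were lower and 62.3% higher. Relative to genes of like level, the medians were -0.23 for the enveloping layer and -0.30 for the yolk syncytial layer without slc26a1. They were 0.50 for the oocyte transcripts and -0.11 for zygotic activation. Above the median of their own level band were 1 of 14, 0 of 8, 6 of 8 and 5 of 13 genes, in that order. The part of any of these marker sets in the solute carrier values was not tested.

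The 10 solute carrier genes under a mean of 1 were not counted above. Of these, 8 had a higher and 2 a lower value in the phf14 morpholino library, and none was listed at 0. The share of higher values among all genes under that mean was not counted. Above it, 62.3% of all genes were higher. Some of these differences were very small, such as slco4a1 at 0.46 and 0.47, so no direction is read from them. The 10 genes ranged from slc5a3b, an inositol transporter gene at 0.13 and 0.18, to slc51a at 0.76 and 1.16. The dopamine transporter gene slc6a3, a marker of neurons that form later, was among them at 0.33 and 0.74.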

How the data were processed

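RNA-seq libraries were made from total RNA of whole embryos with an Illumina TruSeq kit, per the labels' protocols. For each library the authors deposited a table of identifiers, symbols and a normalised expression signal. Both hold the same 4591 genes, and the values are never negative and have at most 2 decimals. The sources used here do not state how reads were aligned, counted and scaled, or with which build. With the depth unknown, counting error could not be estimated. Values were compared as log2(value + 1), which understates the change of low genes, over 3524 genes with a mean of at least 1, using Python 3.11.15, pandas 2.3.3 and numpy 2.4.6. With 1 library per group no test was made. Counts and medians are set beside those of all genes, and level is corrected by the median of each of 10 bands of mean log2 value. The procedure was tested on simulated data. Changes were planted only in genes of higher value and were larger than any difference of a solute carrier. That test therefore does not cover small changes or low values.

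Of the 74 members 73 carry an Ensembl identifier, and 72 of these were found in a gene name table. The symbols there were the same apart from case (55) or also apart from a final a or b (17). No sequence or coordinate was used. Substrate classes follow the family number, from general knowledge. The members, classes and other lists were chosen with earlier results of these data known. Of the members, 1 is counted but not reported here by name, and all others are named. Other lists are given by counts and up to 4 members, from their 2 highest and 2 lowest log2 ratios. Alternatives were a pseudocount of 0.1 or 5, subtraction of the median log2 ratio, a trimmed mean factor (trimming 30% of ratios and 5% of levels per end), level correction, no filter, a mean of at least 5, a 2-fold line and means for medians.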

Additional observations from a re-analysis of the deposited data

How the results depend on the processing

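Counts of solute carriers past 1.5-fold, 3 higher and 3 lower, are given with the shares of all genes past the same line in brackets. They became 9 and 8 with a pseudocount of 0.1 (11.2% and 4.68%), 0 and 0 with a pseudocount of 5 (0.88% and 0.795%) and 0 and 0 with a 2-fold line (0.341% and 0.482%). They were 1 and 9 after centring (2.36% and 4.97%), 1 and 10 with the trimmed mean factor (2.01% and 5.39%), 0 and 8 relative to genes of like level (2.58% and 5.11%), and 1 and 1 with a mean of at least 5 (5.47% and 3.21%). Under the scalings both the lower counts and the lower background increased. The 9 past the lower line after centring were slc25a1b, slc47a4, slc46a3, slc39a5, slc26a1, slc7a8a, slc22a5, slc1a3a and slco1d1. Members with a higher value, 40 of 74 beside 62.3% of all genes, numbered 26 relative to level, beside 1760 of all 3524 genes. With a mean of at least 5 they numbered 17 of 38. These were 6 of 17 with a mean of at least 10, beside 484 of 1004 genes of any kind. With a mean of 5 to 10 they were 11 of 21, beside 462 of 679 genes. The solute carrier median of 0.04 turned to -0.0705 after centring, -0.0903 with the trimmed factor, -0.0735 relative to level and -0.0658 with a mean of at least 5, and was 0.0611 with no filter and 0.015 as a mean. Pseudocounts moved the vitamin median to 0.14 (pseudocount of 0.1) or 0.0332 (pseudocount of 5), and the latter moved metals to -0.0485, mitochondrial carriers to 0.0787, nucleotide sugars to 0.24 and organic ions to -0.12. Centring gave amino acids -0.26, inorganic ions -0.0421, metals -0.19, mitochondrial carriers 0.0316, organic ions -0.31, sugars -0.16 and vitamins -0.0213. The trimmed factor gave amino acids -0.29, inorganic ions -0.0746, metals -0.20, mitochondrial carriers 0.0407, nucleotide sugars 0.26, organic ions -0.32, sugars -0.18 and vitamins 0.0006. Relative to level the medians were -0.24 for amino acids, -0.0668 for inorganic ions, -0.26 for metals, -0.0219 for mitochondrial carriers, 0.23 for nucleotide sugars, -0.37 for organic ions, 0.10 for sugars and -0.0539 for vitamins. With no filter amino acids were at -0.0565, organic ions at -0.071 and sugars at 0.0056. A mean of at least 5 gave metals -0.29, organic ions -0.47 and vitamins -0.12. Means in place of medians gave amino acids -0.0906, inorganic ions -0.0216, metals 0.0209, sugars 0.11 and vitamins 0.0013. The amino acid, organic ion and nucleotide sugar medians kept their sign under every alternative run. For the pseudocounts and rescalings this was fixed by the sign and size of the values. Of the 74 genes, 16 changed sign under some alternative, and their log2 ratios were at most 0.14 in size. Of these, 15 came from the 40 genes with a higher value. The other 58 kept their sign throughout, which is no measure of stability for the lower genes. A pseudocount cannot turn a sign, and the rescalings lowered every gene outside the highest band of level. slc25a51b (0.33 with a pseudocount of 5), slc26a11 (0.19 to 0.95) and slc46a3 (-1.0 to -0.25) shifted by over 1 SD of their level band. Rescaling shifts every gene by construction, and a larger pseudocount shrinks the log2 ratios of low genes most, also by construction. The cause of the other moves was not tested. No paired analysis was possible because a single library stands for each morpholino, which also leaves no replicate to omit. Unknown depth limits the low values most.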
